A study of Homo sapiens with 156 samples.

Results

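The late response of THP1 cells to GSK032 was measured in 8 of the 156 libraries of the series. These were all libraries of 400 nM GSK032 on days 4 and 6 and all DMSO libraries of the same days, chosen by their labels alone. THP1 is a monocytic acute myeloid leukemia line that carries a rearranged KMT2A gene, and GSK032 (GSK3685032) is an inhibitor of DNMT1 that is not built into DNA. The groups were GSK032 at 400 nM for 4 days, GSK032 at 400 nM for 6 days, DMSO (0 nM) for 4 days and DMSO for 6 days, each with 2 libraries of total RNA from cells plated a day before treatment. Every value is therefore from 1 cell line in culture, and the labels do not tell whether the 2 libraries of a group had separate cultures. Each p-value covers only the spread between libraries of the same group, estimated over all 52 THP1 libraries.

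DNMT1 copies methyl groups onto the new strand after DNA replication, so methylation is lost by dilution over cell divisions when it is blocked. Genes that somatic cells keep silent by promoter methylation, above all germline genes of the X chromosome, are the classical genes to come on, and an interferon response often follows in cancer cells. Stress pathways such as the ATF4 response to amino acid shortage, the heat shock response, the NRF2 response to oxidants and the p53 response are commonly induced by toxic compounds, and lists of their genes were followed here between the days.

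More genes passed the threshold on day 6 than on day 4, and no stress list had more than 3 members called higher. The test of the difference between the days called 64 positive and 20 negative differences among 23226 genes. With libraries scaled to equal FPKM sums, 2 and 1 were left. GSK032 raised silent germline genes and interferon genes at both days, with MAGEA4 at a mean of 57.2 FPKM on day 4 and 123 FPKM on day 6. Of the 26 tested genes of monocytes and macrophages, 15 were called higher by day 6. Of the ATF4 response 8 genes and of lipid synthesis 10 genes were called lower on day 6. HMOX1, BTG2, IER3 and some inflammatory genes passed the threshold on day 6 only, but for none of them was the day 6 effect shown to differ from the day 4 effect. The naming rule took 2 fading genes, which are neighbouring pseudogenes on chromosome 14.

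The promoters below are those of some named members of each group. They are MAGEA4 and PNMA5 for the germline genes that rose at both days, STAB1 for the genes that grew to day 6, and IFI27 and IFI44L for the interferon genes. STAB1 was not the gene that grew most. Each is the 300-base window from 250 bases before to 50 bases after the gene start in RefSeq (GRCh38.p14), 5′ to 3′ on the strand of the gene. In the first 3, capitals mark CG dinucleotides, the sites DNMT1 methylates. In the last 2, capitals mark pairs of GAAA boxes with any 2 bases between them, searched on both strands, the core that interferon regulatory factors bind.
MAGEA4 (chrX:151912224-151912523, plus strand): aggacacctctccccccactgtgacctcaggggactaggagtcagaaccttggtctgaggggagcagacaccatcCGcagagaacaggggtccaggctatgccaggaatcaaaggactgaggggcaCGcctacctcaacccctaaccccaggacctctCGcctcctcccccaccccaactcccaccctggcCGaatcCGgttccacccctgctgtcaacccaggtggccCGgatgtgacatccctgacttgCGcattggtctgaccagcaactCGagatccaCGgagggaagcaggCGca
PNMA5 (chrX:152994067-152994366, minus strand): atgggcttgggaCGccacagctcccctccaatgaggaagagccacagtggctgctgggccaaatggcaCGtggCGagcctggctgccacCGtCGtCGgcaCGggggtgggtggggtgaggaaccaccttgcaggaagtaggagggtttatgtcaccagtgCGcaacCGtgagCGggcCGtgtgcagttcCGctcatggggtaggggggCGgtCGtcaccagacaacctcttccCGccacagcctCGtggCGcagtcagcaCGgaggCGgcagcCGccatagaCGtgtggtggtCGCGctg
STAB1 (chr3:52495088-52495387, plus strand): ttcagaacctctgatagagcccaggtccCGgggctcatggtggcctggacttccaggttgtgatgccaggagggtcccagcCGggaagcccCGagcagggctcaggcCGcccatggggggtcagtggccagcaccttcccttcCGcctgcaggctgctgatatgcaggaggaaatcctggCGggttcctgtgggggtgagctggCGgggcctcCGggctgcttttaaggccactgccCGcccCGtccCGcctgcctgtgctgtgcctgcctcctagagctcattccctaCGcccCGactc
IFI27 (chr14:94110486-94110785, plus strand): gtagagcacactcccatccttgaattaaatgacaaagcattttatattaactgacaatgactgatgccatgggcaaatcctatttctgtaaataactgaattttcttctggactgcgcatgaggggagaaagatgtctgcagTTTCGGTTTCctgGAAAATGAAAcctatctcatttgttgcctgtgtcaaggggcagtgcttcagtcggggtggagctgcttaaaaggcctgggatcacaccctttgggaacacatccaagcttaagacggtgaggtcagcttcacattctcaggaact
IFI44L (chr1:78620198-78620497, plus strand): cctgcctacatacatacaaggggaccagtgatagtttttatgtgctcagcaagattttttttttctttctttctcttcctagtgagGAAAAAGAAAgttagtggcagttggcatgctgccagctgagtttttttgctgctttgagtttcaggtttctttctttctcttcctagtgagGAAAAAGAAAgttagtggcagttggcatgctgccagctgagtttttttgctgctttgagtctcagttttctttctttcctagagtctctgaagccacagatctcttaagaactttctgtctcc
The MAGEA4 window held 10 CG dinucleotides, that of PNMA5 23 and that of STAB1 13. The windows of IFI27 and IFI44L each held 2 such pairs. Not shown are the windows of COX7B2, with 8 CG dinucleotides, and of MX1, with 1 pair.

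The same windows were matched by symbol for 11231 of the 23226 tested genes. The 180 matched genes called higher at both days had a median of 10.5 CG dinucleotides (quartiles 5 and 21), against 25 (16 and 34) over all matched genes. Matched genes with a mean DMSO level under 1 FPKM had a median of 15 (quartiles 5 and 28). The pair of GAAA boxes was present on either strand, overlapping matches counted, in 14 of the 16 matched interferon-list genes called higher on day 6 (87.5%). It was present in 19 of the 180 genes called higher at both days (10.6%), against 3.02% of all matched genes and 3.65% of the 27305 promoters in the table. The share in interferon-list genes not called on day 6 was not taken, so the 87.5% cannot be tied to the response. A match describes these letters only.

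The library facts were as follows. Column sums of the 8 libraries ran from 1435780 to 1955340 FPKM, and 10 genes, led by the short RNAs RN7SL1 and RN7SL2, took 55.9 to 63.7% of the sum with GSK032 and 50.8 to 54.3% with DMSO, and the part of this share in the results was not tested. The files hold no counts. Judged from the low values of 9851 genes, 1 FPKM of a 1 kb transcript stood for 33.9 to 74.6 fragments in the 8 libraries, with 69.2 to 75.0% of low values within 0.15 of a whole fragment against 30% by chance. The lowest value was that of DMSO day 6 replicate 1, the others being 55.3 or more, and precision is lowest there. Of 12 monocytic and leukemia markers 11 were at 1 FPKM or more in all 8 libraries, the exception being MEIS1, at most 0.48 FPKM. Among defining markers of other cell types, CD3E of T cells reached at most 0.0168 FPKM, EPCAM of epithelium 0.269 and COL3A1 of stroma 0.0533 FPKM, while PAX5, a B cell factor, reached 1.62 FPKM.

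An effect is the log2 ratio of GSK032 to DMSO of FPKM + 0.5, and a gene was called where limma's Benjamini-Hochberg adjusted p over all 23226 genes was under 0.05 and the effect was at least 1 in size. The added 0.5 understates the effect of genes near 0, and in bulk RNA more cells with a transcript and more of it per cell cannot be told apart. On day 4, 450 genes were called higher (1.94% of those tested) and 78 lower (0.336%). On day 6, 764 were called higher (3.29%) and 183 lower (0.788%). The 317 genes called higher at both days were 70.4% of the day 4 calls and 41.5% of the day 6 calls. The 35 called lower at both days were 44.9% of the day 4 calls and 19.1% of the day 6 calls. Over both days together, 582 genes were called higher (2.51%) and 110 lower (0.474%), while 1.36% of all genes were called higher at both days and 0.151% lower. The median effect of all genes was 0 at both days. It ran with the level: genes at 100 FPKM or more had a median of -0.33 on day 4 and -0.37 on day 6, and genes at 1 to 10 FPKM had 0.09 and 0.06.

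Most genes called higher on day 6 only had a positive effect on day 4 too. Of these 446 genes, 406 had a positive day 4 effect, and 23 passed the test of the difference between the days. Their median day 4 effect was 0.69, against 0 over all genes. With 0.5 added, a gene near 0 FPKM with DMSO can scarcely have a negative effect, so these signs were set in part in advance. A difference that did not pass is not shown to be absent. The test of the difference took day 6 effect minus day 4 effect, with an adjusted p under 0.05 and a size of at least 0.5. It called 64 genes with a more positive effect on day 6 (0.276%) and 20 with a more negative one (0.0861%). Of the 64, 54 were called higher on day 6 and 31 of these were called higher at both days. Of the 20, 12 were called lower on day 6 and 3 were called higher on day 4. A negative difference thus does not by itself mean fading. Of the 133 genes called higher on day 4 only, 94 had a positive day 6 effect and 3 were called for a smaller effect on day 6. Of the 42 called lower on day 4 only, 0 were called by limma for a smaller fall on day 6. Over all genes, 1612 differences had an unadjusted limma p under 0.05 (6.94%).

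The calls of the difference were less firm than those of the days. Leaving out 1 library at a time left 13 to 55 positive and 7 to 16 negative calls. There were 13 and 11 without GSK032 day 4 replicate 1, 36 and 12 without GSK032 day 6 replicate 1, and 26 and 8 without GSK032 day 6 replicate 2. There were 31 and 7 without DMSO day 4 replicate 2, and 29 and 7 without DMSO day 6 replicate 1, while the negative calls were 13 without GSK032 day 4 replicate 2. With libraries scaled to equal FPKM sums 2 positive and 1 negative calls were left. With the spread taken from the 8 libraries alone there were 42 and 20. Of these, only 6 were among the 64 positive calls and only 2 among the 20 negative ones. All 27 differences named in the text kept their sign under each of these settings, and 7 of them, those of CXorf51B, COX7B2, CT45A5, CT45A10, FSTL5, DCAF4L1 and SCD, kept their call whichever library was left out. With the spread of the 8 libraries alone 3 of the 27 kept it (SCD, VCX3A and AL109766.1), and under equal sums 1 did (CXorf51B).

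**Figure D1:**
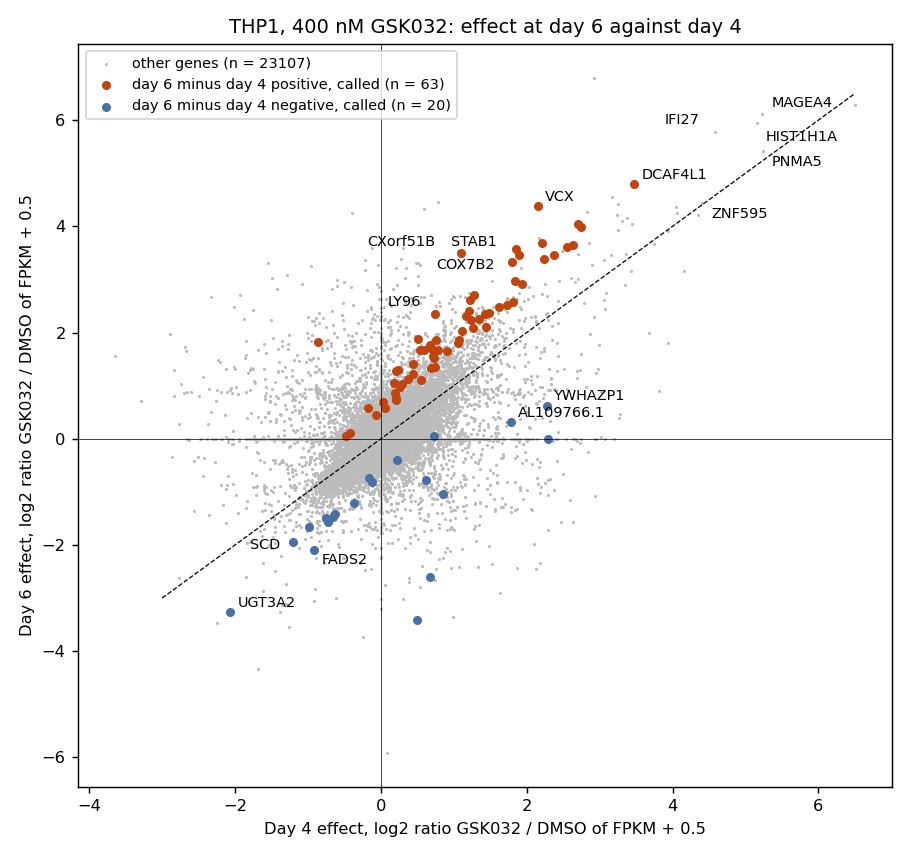
Effect of 400 nM GSK032 on day 6 (y axis) against day 4 (x axis), both as the log2 ratio GSK032 to DMSO of FPKM + 0.5, for all tested genes off the Y chromosome; orange and blue points are genes called for a positive or negative difference and the dashed line marks equal effects. VCX lies at 2.15 on day 4 and 4.38 on day 6, UGT3A2 at -2.07 and -3.27, and the fading pseudogene YWHAZP1 at 2.28 and 0.63.

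Silent germline genes rose on both days. Of 56 genes of the germline and cancer-testis list, 34 passed the filter on low values, which a silent gene passes only where treatment raises it. Of these 12 were called higher on day 4 and 18 on day 6, with a median effect of 0.72 on day 4 and 1.05 on day 6. With a pseudocount of 0.1 the calls were 21 on each day and the medians 2.01 and 2.53, and with a pseudocount of 1 the calls were 8 and 12 and the medians 0.42 and 0.62. MAGEA4, a cancer-testis antigen gene (chrX:151912509-151925170, GENCODE 29 on hg38), measured 56.6 and 57.8 FPKM with GSK032 on day 4, against 1.37 and 0.756 FPKM with DMSO. By day 6 it measured 122 and 123 FPKM with GSK032, against 1.53 and 1.06 FPKM with DMSO. The effect was 5.23 ± 0.23 (SE) on day 4 and 6.11 ± 0.23 on day 6, but the difference of 0.88 did not pass (adjusted p = 0.43).

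PNMA5, a paraneoplastic antigen gene of the X chromosome, rose by 5.24 on day 4 and 5.41 on day 6. It measured 22.2 and 21.5 FPKM with GSK032 on day 4 and 28.4 and 29.3 FPKM on day 6, with every DMSO library at or under 0.263 FPKM. MAEL, which guards germ cells against transposons, had effects of 3.24 and 4.21. PAGE5, a further X-linked antigen gene, had effects of 3.25 and 4.42. Further genes outside the list rose on both days without a called difference. ZNF595, a zinc finger gene, measured 14.2 and 11.2 FPKM with GSK032 on day 4 and 11.1 and 14.7 FPKM on day 6, with DMSO at or under 0.146 FPKM. LINC01667, a long noncoding RNA, measured 84.0 and 71.7 FPKM on day 4 and 63.3 and 59.4 FPKM on day 6 with GSK032, and at most 4.19 FPKM with DMSO. The histone genes HIST1H1A, a linker histone, and HIST3H3, a testis histone, had effects of 5.16 and 4.05 on day 4 and of 5.94 and 4.37 on day 6. ERV3-1, an endogenous retroviral envelope gene, rose by 1.49 on day 4 and 1.93 on day 6.

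Germline genes of the X chromosome also led the genes that grew between the days. CXorf51B was at 0 FPKM in all 4 DMSO libraries. With GSK032 it measured 0.879 and 0.333 FPKM on day 4 and 4.89 and 5.37 FPKM on day 6. Its effect was larger on day 6 by 2.39 ± 0.24 (limma, adjusted p = 1.39e-06). Without GSK032 day 4 replicate 1 its day 4 call was lost. VCX, of a family expressed in male germ cells, measured 3.62 and 3.58 FPKM with GSK032 on day 4, against 0.248 and 0.634 FPKM with DMSO. Its day 6 values were 15.3 and 13.5 FPKM with GSK032, against 0.233 and 0.200 FPKM with DMSO. The difference of its effects was 2.22 ± 0.41 (adjusted p = 0.0103).

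The related VCX3A and the CT45 antigen genes CT45A5 and CT45A10 were also called, with differences of 1.47, 1.52 and 1.4; the call of VCX3A was lost without any 1 of the 8 libraries. These families hold near-identical copies, so reads may be split among members and the values of single copies are uncertain. Outside them, COX7B2, a testis form of a cytochrome oxidase subunit, was at 0 FPKM in every DMSO library. It measured 1.61 and 1.14 FPKM with GSK032 on day 4 and 4.96 and 5.12 FPKM on day 6, a difference of 1.57 ± 0.25 (adjusted p = 0.003). DCAF4L1, a WD-repeat gene, measured 7.84 and 8.12 FPKM with GSK032 on day 4 and 17.8 and 17.1 FPKM on day 6, with DMSO at most 0.276 FPKM. Its difference was 1.31 ± 0.21 (adjusted p = 0.00367). FSTL5, a secreted follistatin-like protein, grew by 1.44. RN7SL274P, a copy of the abundant RN7SL1, is uncertain: its difference of 2.69 was lost without any 1 of the 8 libraries. On the X chromosome 10 of 728 tested genes were called for a positive difference (1.37%), and 40 were called higher over both days (5.49%, against 2.51% of all genes).

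**Figure D2:**
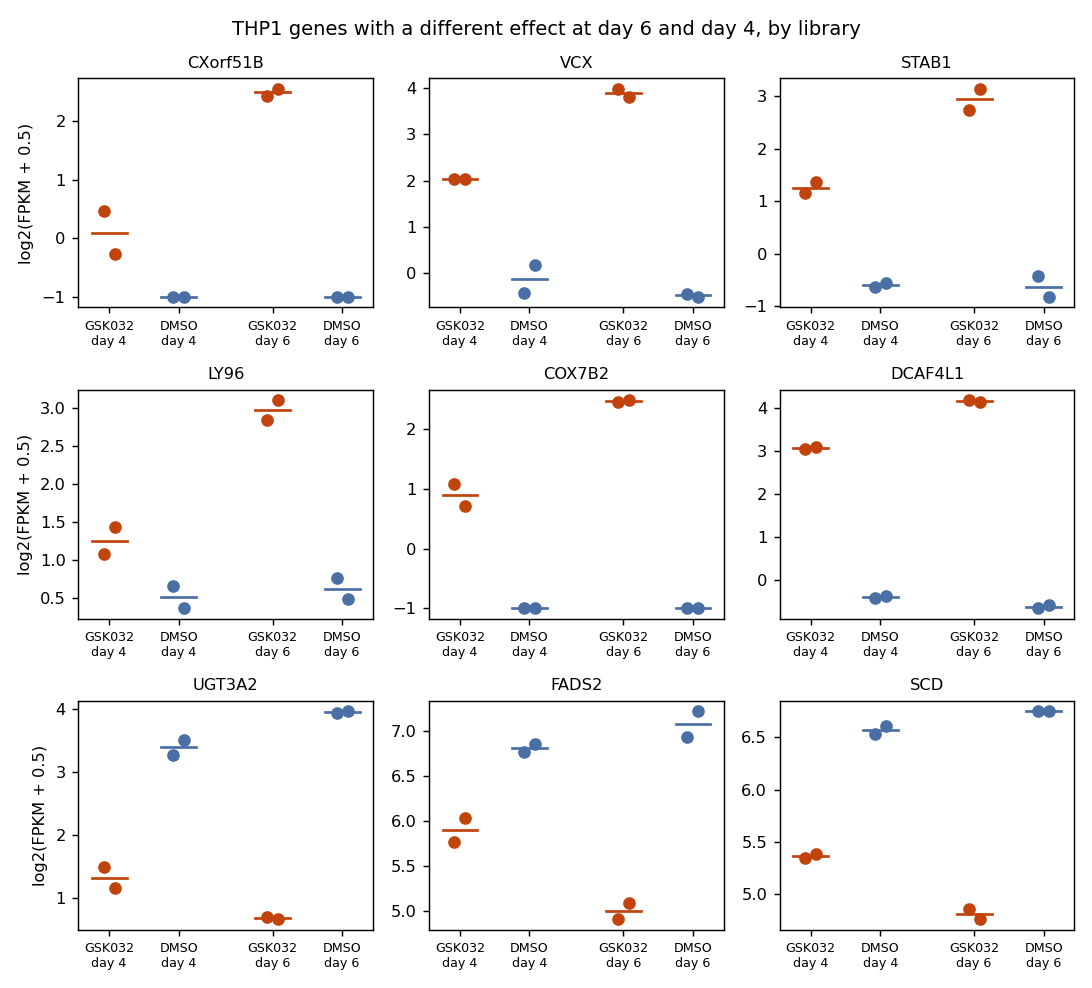
log2(FPKM + 0.5) of 9 genes in each of the 8 libraries; orange points are GSK032, blue points DMSO, and bars the mean of 2 libraries. The first 6 genes are higher with GSK032 on day 6 than on day 4 while DMSO stays low, and UGT3A2, FADS2 and SCD are lower with GSK032 on both days, by more on day 6.

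More members of the monocyte and macrophage list were called higher on day 6 than on day 4. Of 26 tested members 6 were called higher on day 4 and 15 on day 6, and none was called lower, with medians of 0.56 and 1.12. STAB1, a scavenger receptor of tissue macrophages, measured 1.72 and 2.06 FPKM with GSK032 on day 4, against 0.147 and 0.180 FPKM with DMSO. The day 6 libraries gave it 6.21 and 8.31 FPKM with GSK032, against 0.246 and 0.0646 FPKM with DMSO. Its effect grew by 1.72 ± 0.33 (adjusted p = 0.0126), a call that was lost without each of 4 libraries. MAF, a transcription factor of macrophages, rose by 1.43 and 2.23, and CD14, the coreceptor for bacterial lipopolysaccharide, by 1.24 and 2.08, without a called difference.

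APOE, the lipoprotein made by macrophages, measured 22.2 and 29.2 FPKM with GSK032 on day 4, against 11.1 and 12.7 FPKM with DMSO. On day 6 it measured 83.8 and 86.6 FPKM with GSK032, against 22.4 and 23.9 FPKM with DMSO. Its difference of 0.79 had an adjusted p of 0.0438 and was lost without each of 7 libraries, and its day 4 call was lost without GSK032 day 4 replicate 2 or DMSO day 4 replicate 1. LY96, the partner of the receptor TLR4, measured 1.60 and 2.20 FPKM with GSK032 on day 4, against 1.08 and 0.785 FPKM with DMSO, and was not called on that day. By day 6 it measured 6.68 and 8.14 FPKM with GSK032, against 1.19 and 0.897 FPKM with DMSO, so that the groups lay far apart, and its difference of 1.61 ± 0.29 passed (adjusted p = 0.00958). CAMP, an antimicrobial peptide of granulocytes and monocytes, grew by 0.92, a call that was lost without each of 4 libraries. In the list of KMT2A targets and stem-cell genes, 0 of 19 tested members were called by limma on either day, and the median was -0.02 on day 4 and -0.18 on day 6.

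Interferon genes rose on both days. Of 45 tested members 14 were called higher on day 4 and 21 on day 6, none was called lower, and all 45 had a positive day 6 effect. The median was 0.75 on day 4 and 0.97 on day 6. IFI27, an interferon-induced mitochondrial protein, measured 43.8 and 42.1 FPKM with GSK032 on day 4, against 1.39 and 1.23 FPKM with DMSO. Its day 6 values were 204 and 216 FPKM with GSK032, against 3.11 and 3.52 FPKM with DMSO. Its difference of 1.2 ± 0.50 did not pass (adjusted p = 0.576). IFI44L had effects of 1.87 and 2.63, and MX1, a GTPase that blocks viruses, of 1.68 and 2.19. LGALS3BP, a secreted glycoprotein, measured 41.5 and 44.9 FPKM with GSK032 on day 6, against 6.59 and 6.99 FPKM with DMSO. Its effect grew by 0.77 (limma, adjusted p = 0.0196), a call that was lost without each of 4 libraries. In the list of nucleic acid sensors 0 of 11 tested members were called by limma on either day, with day 6 effects of 0.98 for DHX58 and 0.77 for DDX58. HLA-F, a nonclassical class I gene, was the 1 called member of 22 in the antigen presentation list, with effects of 1.35 and 1.98.

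Targets of ATF4 fell. Of the 30 members of the integrated stress response list 3 were called lower on day 4 and 8 on day 6, and none higher, with medians of -0.32 and -0.53. PSAT1, an enzyme of serine synthesis, measured 17.7 and 16.4 FPKM with GSK032 on day 4, against 50.4 and 36.8 FPKM with DMSO. The day 6 libraries gave it 18.7 and 19.0 FPKM with GSK032, against 70.0 and 60.7 FPKM with DMSO. The 4 GSK032 libraries agreed, and the DMSO level itself was not steady, with a mean of 116 FPKM on day 2. PHGDH, the first enzyme of serine synthesis, fell by 1.12 on day 4 and by 1.63 on day 6. ALDH1L2, a mitochondrial folate enzyme, fell by 1.01 and 1.51, and CHAC1, which degrades glutathione, fell by 1.62 on day 6 after a value of -0.84 on day 4. PHGDH averaged 34.0 and 32.7 FPKM with GSK032 on days 4 and 6, against 75.7 and 102 FPKM with DMSO. CHAC1 averaged 1.97 and 1.94 FPKM with GSK032, against 3.92 and 7.03 FPKM with DMSO. For both genes it was the DMSO mean that moved. ALDH1L2 averaged 6.98 and 4.58 FPKM with GSK032, against 14.7 and 14.0 FPKM with DMSO. The day 4 calls of PHGDH and ALDH1L2 were lost without DMSO day 4 replicate 1, and that of ALDH1L2 also without GSK032 day 4 replicate 2. Under another scaling (median ratios or equal sums) 4 members were called lower and 1 higher on day 6. No member of this list was called for the difference between the days.

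In the unfolded protein response list 0 of 18 members were called by limma on either day. Its median was -0.07 on day 4 and 0.16 on day 6. The effect was positive in 4 of the 18 members on day 4 and in 13 on day 6. The 2 members named went the other way on day 6. SEC61B, a subunit of the translocon, and CALR, a chaperone of the endoplasmic reticulum, had day 6 effects of -0.49 and -0.42. In the heat shock list 1 of 13 tested members was called, HSPE1, a mitochondrial chaperone, which fell by 1.02 and 1.08. These calls of HSPE1 were lost under median ratio scaling, the day 4 one also without GSK032 day 4 replicate 1 and the day 6 one without DMSO day 6 replicate 1. The hypoxia list had 0 of 16 members called by limma and the metallothionein list 0 of 6. NDRG1 and BNIP3, both induced by low oxygen, had day 6 effects of 0.90 and -0.60, and the metallothioneins MT1G and MT1E had -0.96 and -0.65.

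Of the oxidative stress, p53 and immediate early lists 1 member each was called higher on day 6, shares near the 3.29% of all genes called higher on that day. In the oxidative stress list 1 of 19 tested members was called, HMOX1, which degrades heme. It measured 2.79 and 3.87 FPKM with GSK032 on day 4, against 1.67 and 1.5 FPKM with DMSO. On day 6 it measured 7.36 and 10.3 FPKM with GSK032, against 1.26 and 2.07 FPKM with DMSO. The effect was 0.86 ± 0.25 on day 4 and 2.11 ± 0.25 on day 6. The difference of 1.25 (95% interval 0.54 to 1.96) had an adjusted p of 0.152. In the p53 list 1 of 29 tested members was called, BTG2, an antiproliferative gene. It measured 11.8 and 10.9 FPKM with GSK032 on day 4, against 6.62 and 6.98 FPKM with DMSO, and 13.6 and 14.6 FPKM with GSK032 on day 6, against 6.36 and 6.24 FPKM with DMSO.

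BTG2 was thus higher in every GSK032 library on both days, and its difference of 0.40 did not pass (adjusted p = 0.31). In the immediate early list 1 of 24 members was called, IER3, an early response gene below the level for naming and given here because it was the only one. It measured 0.777 and 0.811 FPKM with GSK032 on day 6, against 0.0561 and 0.0925 FPKM with DMSO, and its call was lost with a pseudocount of 1. MYC had a day 6 effect of -0.87 and DUSP6, a phosphatase of ERK, one of 0.70. Of the apoptosis regulators BMF, a death-promoting BH3 protein, was called higher on both days (1.09 and 1.24). BCL2A1, a survival protein, was called on day 6 only (0.71 and 1.48). They were 2 of 20 tested members on day 6.

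The lysosome list had members called higher on both days. Of 21 members 1 was called on day 4 and 3 on day 6, and the difference was positive in all 21, with a median of 0.25. GPNMB, a glycoprotein of lysosomes and macrophages, measured 14.5 and 18.0 FPKM with GSK032 on day 4, against 3.76 and 4.79 FPKM with DMSO. By day 6 it measured 45.6 and 51.7 FPKM with GSK032, against 6.65 and 7.75 FPKM with DMSO. CTSD, a lysosomal protease, had effects of 0.95 and 1.53. TFEB, a regulator of lysosomal genes, measured 29.4 and 32.6 FPKM with GSK032 on day 6, against 13.3 and 13.9 FPKM with DMSO. NPC2, which carries cholesterol out of lysosomes, was the 1 member of a stress list called for the difference, at 0.54 ± 0.11 (adjusted p = 0.0244). It measured 30.0 and 35.2 FPKM with GSK032 on day 4, against 48.6 and 42.9 FPKM with DMSO, and 76.2 and 76.8 FPKM with GSK032 on day 6, against 73.1 and 73.7 FPKM with DMSO. The groups were apart on day 4 and nearly equal on day 6, and the call was lost without each of 6 libraries.

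In the list of NF-kB and inflammation genes 0 of 23 tested members were called higher by limma on day 4 and 7 on day 6, and 1 was called lower on both days. With a pseudocount of 0.1 the counts of higher members were 3 and 7, and with a pseudocount of 1 they were 0 and 3. No member was called for the difference. CXCL1, a chemokine for neutrophils, measured 2.36 and 1.99 FPKM with GSK032 on day 6, against 0.274 and 0.748 FPKM with DMSO. CXCL8, a related chemokine, measured 7.6 and 6.68 FPKM with GSK032 on day 6, against 3.01 and 2.63 FPKM with DMSO. CCL5, a chemokine for T cells, fell by 1.27 on day 4 and 1.41 on day 6.

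**Figure D3:**
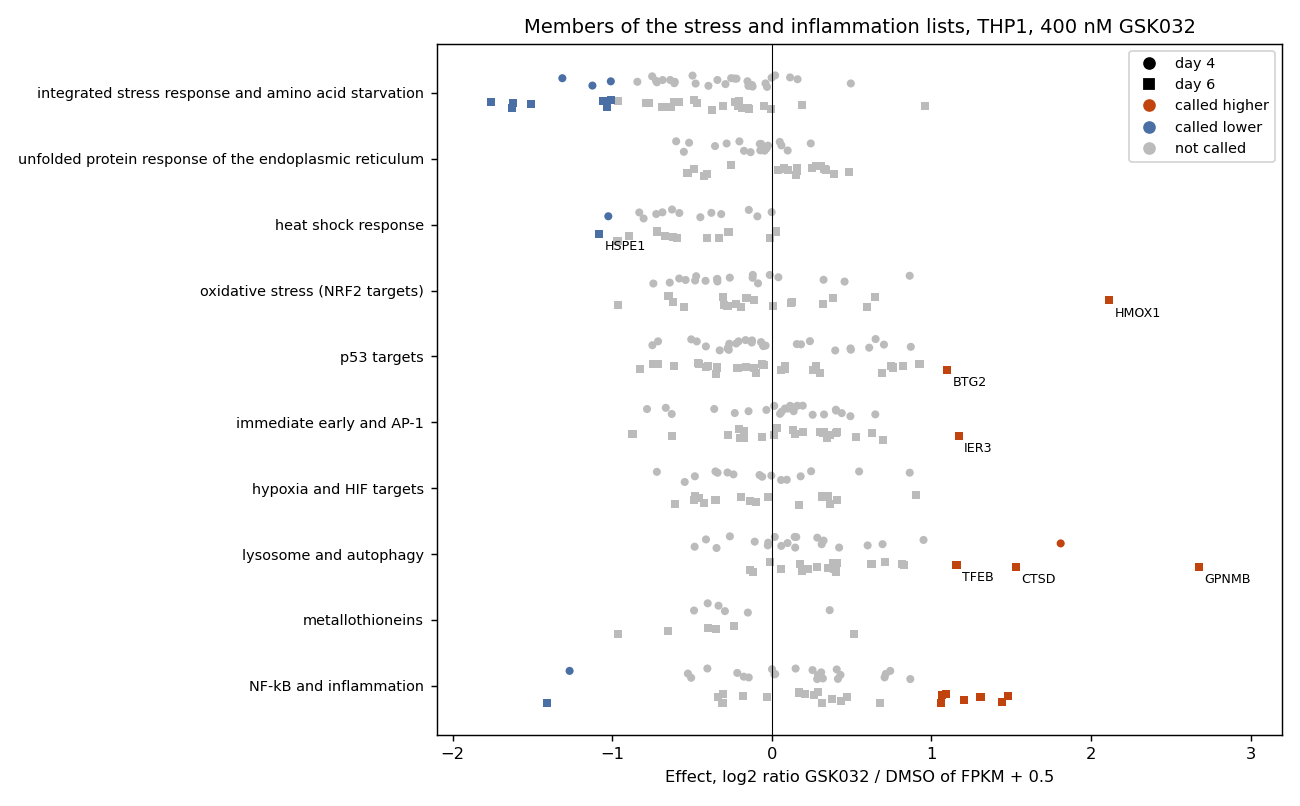
Effects (log2 ratio GSK032 to DMSO of FPKM + 0.5) of the tested members of 9 stress lists and of the inflammation list, with day 4 as circles above and day 6 as squares below; orange members are called higher, blue ones lower, grey ones not called. The ATF4 list has 8 blue members on day 6, while HMOX1 at 2.11, BTG2 at 1.1 and IER3 at 1.17 stand alone in theirs.

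Lipid synthesis genes fell, and more of them passed the threshold on day 6. Of 28 tested members of the cholesterol and lipid synthesis list 1 was called lower on day 4 and 10 on day 6, none was called higher, and medians were -0.64 and -0.82. All 28 effects were negative on both days. The day 6 minus day 4 difference was negative in 18 members and positive in 10, with a median of -0.12, or 0.01 under equal sums. It was called in 4 members. SCD, which makes monounsaturated fatty acids, measured 40.3 and 41.1 FPKM with GSK032 on day 4, against 91.9 and 97.1 FPKM with DMSO. Its day 6 values were 28.4 and 26.6 FPKM with GSK032, against 107 FPKM in both DMSO libraries. Its effect fell further by 0.74 ± 0.12 (adjusted p = 0.00398). FADS2, a desaturase of polyunsaturated fatty acids, measured 53.7 and 65.0 FPKM with GSK032 on day 4, against 108 and 116 FPKM with DMSO. The day 6 libraries gave it 29.4 and 33.4 FPKM with GSK032, against 122 and 149 FPKM with DMSO, and its difference was -1.17 ± 0.23 (adjusted p = 0.0126).

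FADS1, the desaturase next to it in the genome, and SREBF1, the transcription factor of fatty acid synthesis, had differences of -0.68 and -0.84. INSIG1, a sterol sensor partner, fell by 1.36 on day 6. These 4 differences were lost under equal sums, under which 7 members were called lower on day 6, as also under median ratio scaling. Of the 4, the call of SCD held whichever library was left out. The calls were lost without each of 4 libraries for FADS2, 7 for SREBF1 and 8 for FADS1. With the spread of the 8 libraries alone, the calls of FADS2, SREBF1 and FADS1 were also lost. Other genes called for a larger fall on day 6 were UGT3A2, a glycosyltransferase, AK4, a mitochondrial adenylate kinase, RNF175, a RING finger gene, OSR2, a zinc finger gene, and OLMALINC, a long noncoding RNA. These calls were lost without each of 4 libraries for UGT3A2 and RNF175, 6 for AK4 and 7 for OSR2 and OLMALINC, and all 5 were lost under equal sums and with the spread of the 8 libraries alone. UGT3A2 measured 2.29 and 1.72 FPKM with GSK032 on day 4, against 9.13 and 10.8 FPKM with DMSO. On day 6 it measured 1.12 and 1.08 FPKM with GSK032, against 14.8 and 15.1 FPKM with DMSO. RNF175 averaged 8.20 FPKM with GSK032 on day 4 and 7.32 FPKM on day 6, against 13.3 and 21.1 FPKM with DMSO. OSR2 averaged 3.90 and 3.72 FPKM with GSK032, against 6.37 and 10.8 FPKM with DMSO. For both genes the DMSO mean rose by more than the GSK032 mean fell. AK4 averaged 6.57 and 4.40 FPKM with GSK032, against 11.4 and 13.3 FPKM with DMSO. OLMALINC averaged 1.68 and 0.778 FPKM, against 3.09 and 3.29 FPKM.

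Further genes fell at both days without a called difference. GAL, a neuropeptide, measured 3.52 and 3.06 FPKM with GSK032 on day 6, against 23.6 and 21.4 FPKM with DMSO, with effects of -1.85 and -2.60. TIMP3, an inhibitor of matrix proteases, fell by 1.59 and 1.33, CNN3, an actin-binding calponin, by 1.26 and 1.54, and CERS1, a ceramide synthase, by 1.25 and 1.53. DSC3, a desmosomal cadherin, and ITM2A, a membrane protein, fell by 1.72 and 1.63 on day 6. CKS1BP3, a pseudogene at or under 2.22 FPKM, lost its day 4 call without DMSO day 4 replicate 1. C12orf75 and AC002454.1, an antisense RNA whose level is uncertain, had day 6 effects of -1.36 and -2.21.

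Fading was rare. Of the 3 genes called higher on day 4 with a smaller effect on day 6 the rule took 2, and it took 0 genes called lower on day 4 with a smaller effect. YWHAZP1 and AL109766.1 are pseudogenes that lie near each other at chr14:44290997-44291718 and chr14:44120210-44120761, within the long noncoding gene LINC02307. YWHAZP1 measured 3.75 and 1.85 FPKM with GSK032 on day 4, against 0.103 and 0.206 FPKM with DMSO. By day 6 it measured 0.298 and 0.246 FPKM with GSK032, and 0 FPKM with DMSO. AL109766.1 measured 1.29 and 1.38 FPKM with GSK032 on day 4, against 0.0295 and 0.0329 FPKM with DMSO. Its day 6 values were 0.215 and 0.194 FPKM with GSK032, against 0.0654 and 0.0692 FPKM with DMSO. Their differences were -1.65 and -1.48, and the calls were lost without each of 4 and of 8 libraries. LINC02307 itself measured 14.6 and 15.5 FPKM with GSK032 on day 4 and 12.9 and 12.8 FPKM on day 6, with DMSO at most 0.880 FPKM. How reads were shared among these overlapping genes is not given in the sources used here.

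Growth genes were lower in level without passing the threshold. In the lists of ribosomal proteins (28 members), S-phase genes (32) and mitosis genes (30), limma called 0 members on either day, and at the deposited scaling the effect was negative in every member on both days. Their day 6 medians were -0.62, -0.74 and -0.60, against 0 over all genes and -0.37 over genes at 100 FPKM or more. CDC6, which loads the replicative helicase, had effects of -0.93 and -0.92, and CDK1, the mitotic kinase, of -0.78 and -0.80. RPLP0, a ribosomal stalk protein, had -0.87 and -0.91. The nuclear subunits of oxidative phosphorylation (26 members, 0 called) had a day 6 median of -0.31 and glycolysis genes (18, 0 called) one of -0.37, with -0.75 for UQCRQ, -0.63 for NDUFB3, -0.91 for PFKM and -0.68 for HK2. The target, DNMT1, measured 81.4 and 73.1 FPKM with GSK032 on day 4, against 96.2 and 89.8 FPKM with DMSO. The day 6 libraries gave it 73.0 and 65.4 FPKM with GSK032, against 89.5 and 83.3 FPKM with DMSO, an effect of -0.32. DNMT3A, DNMT3B and UHRF1 had day 6 effects of -0.29, -0.24 and -0.60. CDCA7, which recruits the HELLS remodeler, was the 1 called member of 18 in the methylation machinery list and fell by 1.25 on day 6, a value of -0.95 standing on day 4.

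Markers of other cell types moved with the treatment in part. With GSK032 the summed level of the fibroblast list was 59.9 to 70.9 FPKM on day 4 and 108 to 114 FPKM on day 6. With DMSO it was 44.6 to 55.6 and 54.5 to 58.3 FPKM. Most of the day 6 sum was VIM alone, which was called on day 6. It measured 72.9 and 79.2 FPKM with GSK032 on that day, against 34.2 and 34.7 FPKM with DMSO. SPARC, a matrix protein, rose by 1.42 and 1.93. The erythroid and megakaryocyte list summed to 24.5 to 30.7 FPKM with GSK032 and 12.0 to 15.2 FPKM with DMSO, with NFE2 the called member and 5 of 18 members at 0 in all 8 libraries. The epithelial list summed to 11.3 to 15.4 FPKM with GSK032 and 7.25 to 9.61 FPKM with DMSO, with KRT18 called. That of T and NK cells summed to 12.7 to 13.7 FPKM with GSK032 and 15.0 to 16.8 FPKM with DMSO, with GNLY called on day 6. The B cell list summed to 8.39 to 12.0 FPKM with GSK032 and 5.83 to 7.98 FPKM with DMSO, with no member called. Members called higher on day 6 were 2 of 13 tested in the fibroblast list and 1 of 3 in the erythroid and megakaryocyte list. They were 1 of 7 in the epithelial list, 1 of 7 in that of T and NK cells and 0 of 7 in the B cell list. Of all genes 3.29% were called higher on that day. With so few members tested, these counts say little about a list. The part of these lists in the results was not tested. HBB and KRT5, defining markers of red cells and basal epithelium, were at 0 in all 8 libraries. Of the imprinted genes, CDKN1C, a cell cycle inhibitor, rose by 1.08 on both days. DIRAS3, a growth-suppressing GTPase, measured 2.83 and 1.91 FPKM with GSK032 on day 6, against 0.0192 and 0 FPKM with DMSO. Its difference was 0.86, a call that was lost without each of 6 libraries.

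**Figure D4:**
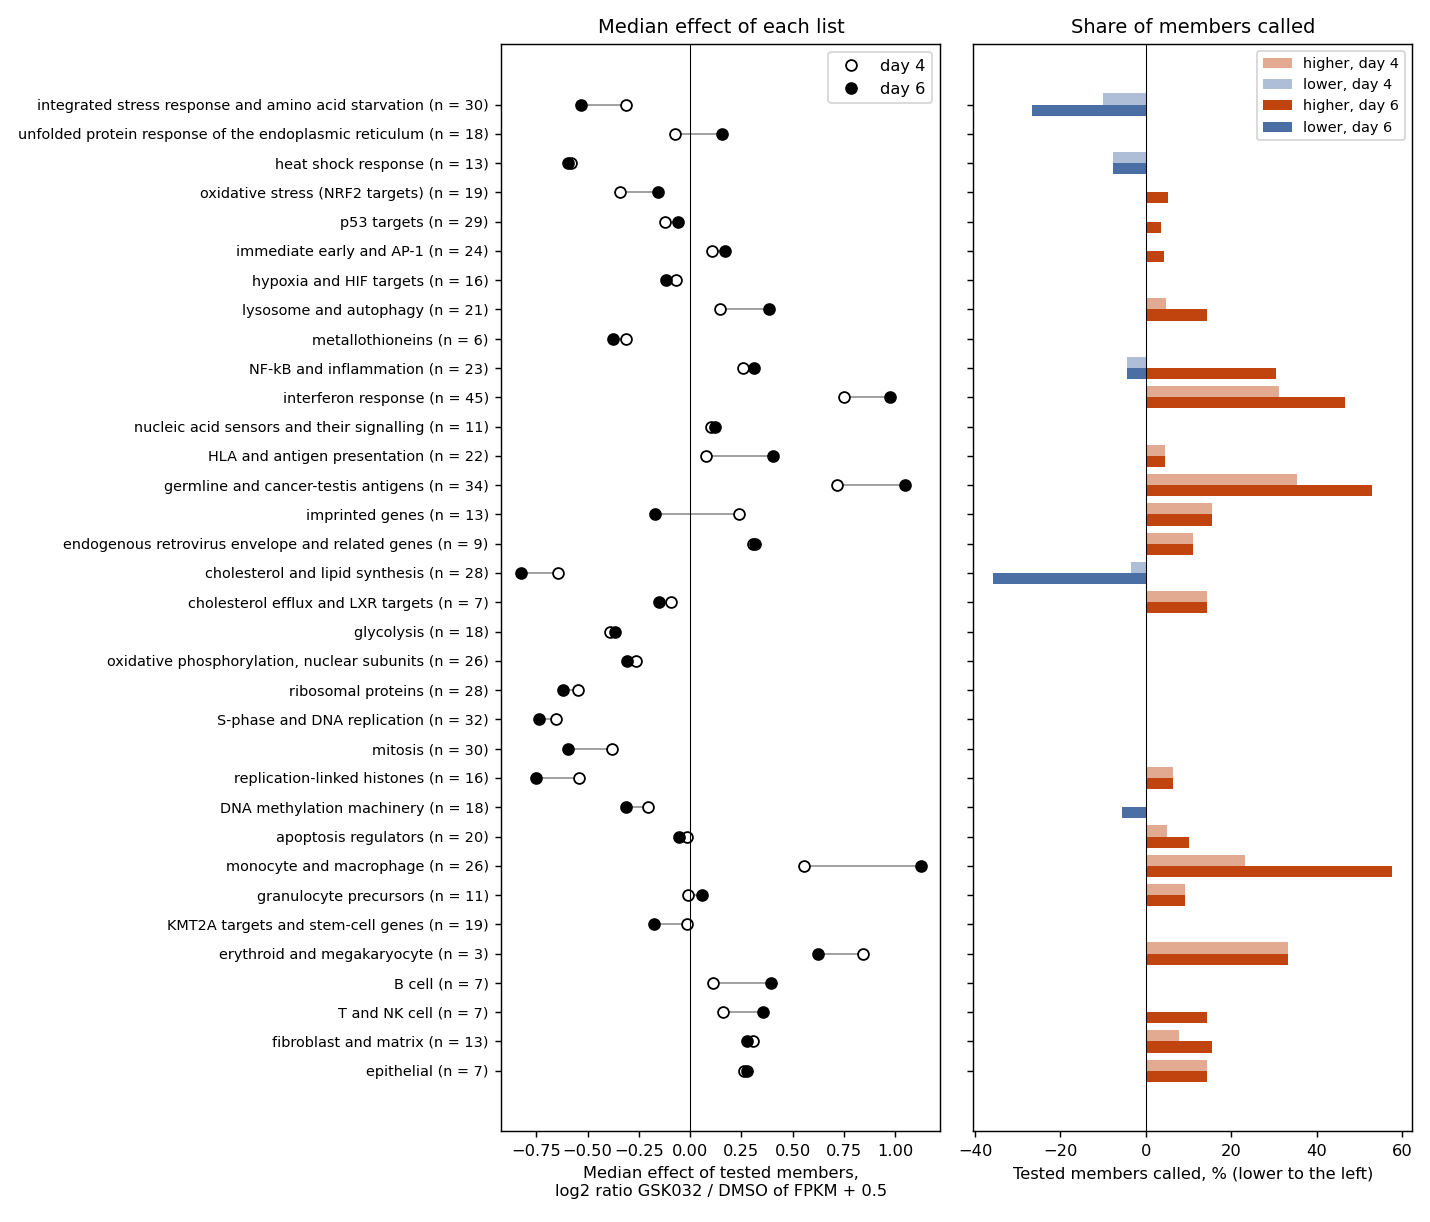
Left, median effect of the tested members of each of 34 gene lists on day 4 (open) and day 6 (filled), as the log2 ratio GSK032 to DMSO of FPKM + 0.5; right, percent of tested members called higher (orange, right) or lower (blue, left), day 4 pale and day 6 dark. The day 6 median is 1.12 for the monocyte, 1.05 for the germline and 0.97 for the interferon list, and -0.82 for the lipid synthesis list; the germline median covers the 34 members that passed the filter and moves with the pseudocount.

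Values of the late genes on earlier days are given here, with a limit. The DMSO libraries of day 4 stood apart from those of the other days. They held 17025 and 17484 genes at 1 FPKM or more, against 16139 and 16370 on day 1. Day 2 had 15809 and 16092 such genes, and day 6 had 15610 and 16085. The part of this in values compared across days, day 6 against day 4 among them, was not tested. On day 1, 3 genes were called higher and 2 lower, and on day 2, 78 and 11 (0.0129% and 0.00861% on day 1, 0.336% and 0.0474% on day 2). MAGEA4 averaged 7.04, 23.7, 57.2 and 123 FPKM with GSK032 on days 1, 2, 4 and 6, against 1.64, 1.46, 1.07 and 1.29 FPKM with DMSO. STAB1 averaged 0.143, 0.334, 1.89 and 7.26 FPKM with GSK032 on these days, and at most 0.322 FPKM with DMSO. IFI27 averaged 3.42, 9.80, 42.9 and 210 FPKM with GSK032, against 3.19, 2.09, 1.31 and 3.32 FPKM with DMSO. MAGEA4 was thus apart from DMSO on day 1 and IFI27 on day 2, while STAB1 was not called before day 4. HMOX1 averaged 1.1, 1.33, 3.33 and 8.81 FPKM with GSK032, against 1.31, 0.957, 1.59 and 1.67 FPKM with DMSO. SCD averaged 74.0, 70.3, 40.7 and 27.5 FPKM with GSK032, against 84.5, 90.0, 94.5 and 107 FPKM with DMSO.

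**Figure D5:**
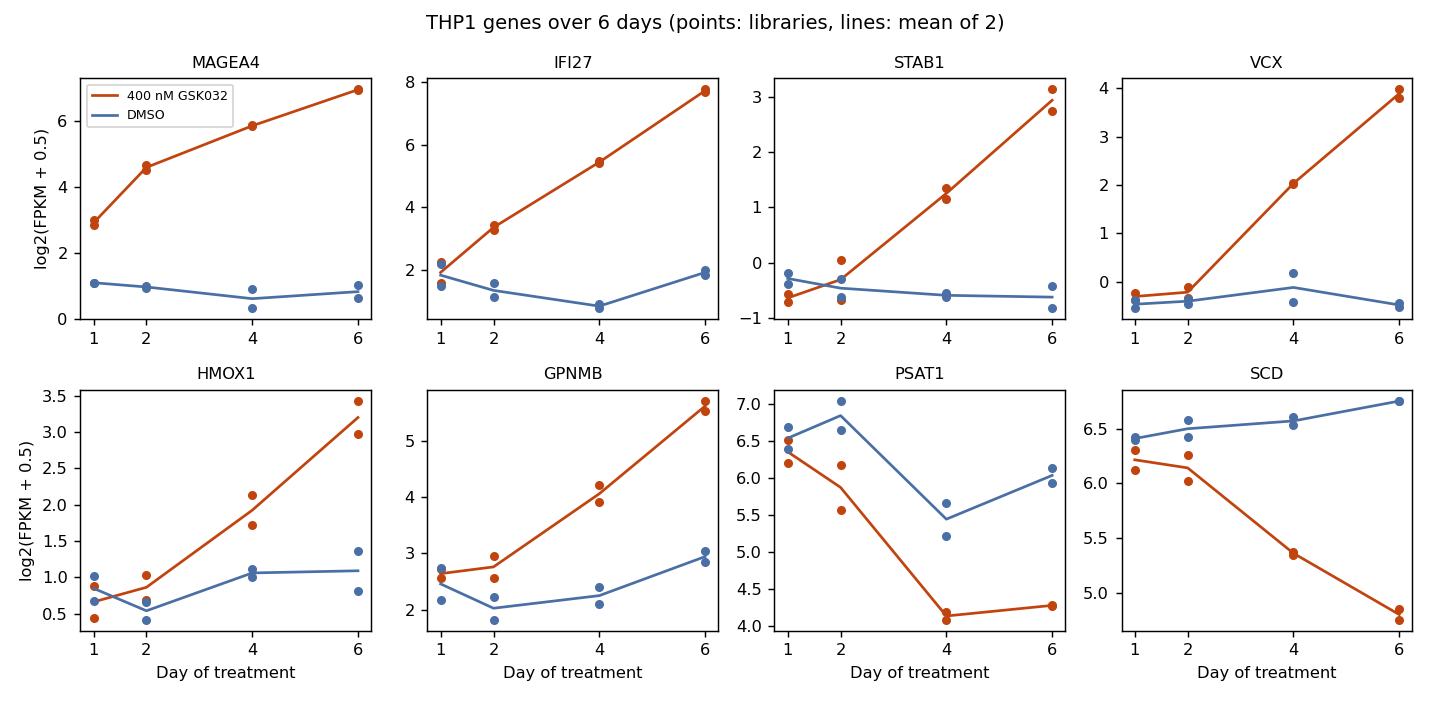
log2(FPKM + 0.5) of 8 THP1 genes on days 1, 2, 4 and 6; orange is 400 nM GSK032, blue is DMSO, points are libraries and lines the mean of 2. MAGEA4 is apart from DMSO on day 1, while STAB1, VCX and HMOX1 separate by day 4 and lie further apart on day 6.

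Decitabine (DAC), a nucleoside drug that is built into DNA and captures DNMT1 there, was given at the same dose and gives a direct comparison on day 6. GSK032 was called higher than DAC in 138 genes (0.594%) and lower in 579 (2.49%). The number lower is set in part by the filter, which a gene can pass through DAC libraries alone. With the filter on the 8 libraries of GSK032 and DMSO, 132 were called higher and 297 lower. Of the 45 tested members of the interferon list 27 were called lower with GSK032 than with DAC and 0 higher, with a median difference of -1.19 against 0 over all genes. IFI27 measured 204 and 216 FPKM with GSK032 and 1346 and 1182 FPKM with DAC, a difference of -2.59 ± 0.35 (adjusted p = 2.43e-06). IFI44L and MX1 differed by -2.84 and -1.94. SPARC measured 3.63 and 3.73 FPKM with GSK032 and 62.3 and 79.5 FPKM with DAC. BTG2 measured 13.6 and 14.6 FPKM with GSK032 and 29.7 and 31.5 FPKM with DAC, a difference of -1.09. TIMP3, which fell with GSK032, measured 4.40 and 4.58 FPKM with it and 22.2 and 23.5 FPKM with DAC. Of the 10 genes named for growing most, 4 were called lower with GSK032 than with DAC and 0 higher. The 4 were CXorf51B (-1.24), VCX3A (-1.24), CT45A10 (-1.18) and CT45A5 (-1.02), while LY96 and COX7B2 differed by -0.07 and 0.15, which did not pass. HMOX1 and GPNMB differed by -0.35 and -0.26, PSAT1 by 0.04 and SCD by 0.20, none of them called.

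The same dose and days were measured in MV411 and NOMO1, further leukemia lines with their own DMSO libraries, each with 2 libraries a group. Of the THP1 genes called higher on day 6, 634 were tested in MV411 and 356 of them were called higher there (56.2%, against 8.21% of all genes tested in MV411). In NOMO1 221 of 630 were (35.1%, against 4.25%). These are 19.7% of the MV411 calls and 25.1% of the NOMO1 calls. Of the genes called lower, 60 of 137 were called lower in MV411 (43.8%, against 4.24%) and 21 of 149 in NOMO1 (14.1%, against 0.987%), which are 6.45% and 10.2% of the calls of those lines. Of the THP1 genes called for a positive difference, 17 of 55 were called so in MV411 (30.9%, against 2.25%) and 6 of 58 in NOMO1 (10.3%, against 0.337%), which are 3.45% and 8.57% of their calls.

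STAB1 had effects of 5.24 and 6.45 on days 4 and 6 in MV411 and of 3.03 and 4.53 in NOMO1. PSAT1 had -1.62 and -3.10 in MV411 and -0.35 and -0.62 in NOMO1. SCD had -1.29 and -2.16 in MV411, and 0.05 and -1.17 in NOMO1. HMOX1 had 1.24 and 1.63 in MV411 and 0.53 and 1.29 in NOMO1. Some values had the other sign: GPNMB had -0.27 and -1.53 in MV411, and LY96 had -1.02 and -2.23 there. IFI27 had 4.83 and 6.70 in MV411 and 0.32 and -0.02 in NOMO1. Differences between the lines were not tested.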

How the data were processed

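Total RNA was sequenced in 156 libraries of 3 leukemia lines; 52 are of THP1 and 8 are described here. The authors deposited FPKM values, fragment numbers scaled by transcript length and library depth, for 59939 genes per line; the submitters' processing notes name Salmon 0.12.0, DESeq2 without a version and hg38, and how FPKM was made is not given in the sources used here. Log2 fold tables of the authors and 4 MV411 columns with repeated names were not used. Only FPKM were used, so no count model was fitted. Log2 values were computed from the deposited FPKM with a pseudocount of 0.5. Genes with at least 1 FPKM in at least 2 of the 52 libraries (23226) were fitted with limma 3.58.1 in R 4.3.3, with a mean for each of 26 groups, 26 residual degrees of freedom and a variance trend, and p-values were adjusted by Benjamini and Hochberg over all genes of a contrast. The spread is thus shared by all groups of 2. The day 6 minus day 4 effect is an interaction contrast. MV411 and NOMO1 were fitted alone.

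Names and positions are from GENCODE 29 (94.3% of identifiers matched), and promoters from RefSeq. Strand use is not recorded, so levels of antisense and overlapping genes are uncertain. Named genes had a symbol, at least 1 FPKM on average in the higher group and a length of at least 200 bases. The rule took the 12 largest effects in each direction called on both days, the 10 largest called growing and fading differences, at most 4 called genes per list (or 2 uncalled ones, as values) and the methyltransferase genes; IER3 was added after its values were seen. Genes of the Y chromosome were left out after the values were seen, and some markers of other cell types are not reported here. Members and lists were chosen with earlier results of these data known. The fit was tested on simulated data with known changes. The alternatives were other pseudocounts, filters and scalings, the 8 libraries alone, no variance trend, a replicate block and leaving out each library. Figures and tables were made with Python 3.11.15.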

Additional observations from a re-analysis of the deposited data

Results flagged for a closer look

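The effect of GSK032 differed between day 6 and day 4, by limma's test of the difference itself, in 27 named genes, and no explanation was tested. Where the day 6 effect was the more positive one, the difference was 2.69 for RN7SL274P, 2.39 for CXorf51B, 2.22 for VCX, 1.72 for STAB1, 1.61 for LY96, 1.57 for COX7B2, 1.52 for CT45A5 and 1.47 for VCX3A. It was 1.44 for FSTL5, 1.4 for CT45A10, 1.31 for DCAF4L1, 0.92 for CAMP, 0.86 for DIRAS3, 0.79 for APOE, 0.77 for LGALS3BP and 0.54 for NPC2. Of these, RN7SL274P and NPC2, were lower with GSK032 on day 4. Among genes that fell, it was -1.2 for UGT3A2, -1.17 for FADS2, -0.85 for OLMALINC, -0.84 for SREBF1, -0.80 for RNF175, -0.80 for OSR2, -0.74 for SCD, -0.73 for AK4 and -0.68 for FADS1. Among genes that faded it was -1.65 for YWHAZP1 and -1.48 for AL109766.1. With 2 libraries a group, no single library could be tested as standing apart.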

How the results depend on the processing

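The pseudocount moved many counts. With 0.1, 1045 genes were called higher over both days, 778 on day 4 and 1271 on day 6, with 282 lower on day 6. Differences were then 26 positive and 12 negative, and GSK032 against DAC gave 209 higher and 970 lower. With a pseudocount of 1, 375 genes were higher over both days, 286 on day 4, and 364 lower than with DAC. Equal sums gave 115 lower on day 6, 2 and 1 differences and 218 higher than DAC; this scaling moved the median difference by 0.12. Median ratio scaling gave 72 lower over both days and 117 on day 6. The 8 libraries alone gave 42 positive differences, and a filter on the 8 libraries 297 genes lower than with DAC.

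The replicate block gave 112 positive and 32 negative differences, which included all 64 and all 20 of the fit without it, and changed no other count by over 1.5 times. The labels do not say that a number marks a shared batch, and deviations of equally numbered libraries correlated by 0.04 to 0.10 among the 6 pairs of groups, so the numbers were not taken as pairing.

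Leaving out 1 library, with the lone library of its group assumed to vary like the other groups, gave 533 to 654 genes higher and 104 to 142 lower over both days, 457 to 517 and 65 to 116 on day 4, and 649 to 905 and 180 to 309 on day 6, the 309 without DMSO day 6 replicate 2. Differences ran from 13 to 55 positive and 7 to 16 negative, and GSK032 against DAC from 132 to 155 higher and 551 to 659 lower. Of 277 named effects, 212 kept their call under every setting and none reversed. Without counts, no counting error can be given, and low values rest on few fragments.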

Other observations

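Genes with low DMSO levels made up much of the response. Of the 582 genes called higher over both days (2.51%), 334 had a mean DMSO level under 1 FPKM (57.4%, against 28.2% of all tested genes), and of the 110 called lower (0.474%) 5 did. A gene with such a DMSO level passes the filter mostly through treated libraries and, with 0.5 added, can scarcely be called lower, so these shares are a description set in part by the filter. The number of genes at 1 FPKM or more was 17917 and 18401 with GSK032 on day 4, against 17025 and 17484 with DMSO, and 16498 and 16702 with GSK032 on day 6, against 15610 and 16085 with DMSO. Long noncoding genes were called higher over both days in 107 of 3367 (3.18%) and protein-coding genes in 332 of 13523 (2.46%). The share of mitochondrial genes in the FPKM sum was 0.449 to 0.493% with GSK032 and 0.352 to 0.577% with DMSO on day 4, and 0.154 to 0.222% and 0.148 to 0.167% on day 6.

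On day 4 other doses of GSK032 bracketed the 400 nM values. MAGEA4 averaged 0.891, 2.43, 9.17, 57.2, 61.9 and 59.8 FPKM at 3.2, 16, 80, 400, 2000 and 10000 nM. STAB1 averaged 0.110, 0.197, 0.166, 1.89, 6.43 and 11.5 FPKM at these doses, and IFI27 1.75, 4.15, 5.43, 42.9, 119 and 173 FPKM. SCD averaged 86.5, 82.6, 72.8, 40.7, 25.3 and 20.5 FPKM. MAGEA4 averaged about the same from 400 nM up, while the STAB1 and IFI27 means were higher and the SCD mean lower at 2000 and 10000 nM, differences between doses that were not tested.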
